A study of Rattus norvegicus with 24 samples.

Results

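The 9 genes Cd79b, Ms4a1, Cd22, Fcer2, Cr2, Blnk, Btk, Cd37 and Fcrla encode parts of the B cell antigen receptor, its signalling chain and proteins of the B cell surface. They were taken by symbol from 14201 genes that a probe set of the array names alone, and each was read from its probe set with the highest mean over all 24 arrays. The study gave cyclophosphamide, an alkylating cytotoxic drug that also suppresses the immune system, to male Sprague-Dawley rats labelled Wild Type and 46-49 days old. The drug went in by mouth at 40 mg/kg/day for 5 days, or vehicle alone was given, and rats of each dose group either had a wood stick in the cage or had none. The 4 groups were thus vehicle without wood, vehicle with wood, drug without wood and drug with wood, each of 3 rats, and all animals carried the same genotype label. Liver and spleen of each of the 12 rats were put on Affymetrix Rat 230 2.0 arrays, so that the arrays compare whole organs.

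A B cell recognises antigen with a surface immunoglobulin, which signals through the paired chains Cd79a and Cd79b. Src and Syk family kinases pass the signal to the adaptor Blnk and the kinase Btk, and co-receptors on the surface raise or damp it: the complement receptor Cr2 raises it, and Cd22 recruits phosphatases that damp it. In the spleen, B cells fill the follicles and marginal zone of the white pulp, while the liver holds few of them. In whole organs, fewer B cells and less RNA per B cell cannot be told apart.

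Promoter windows of RefSeq on the rat build GRCr8, each with 250 bases before and 50 after the transcription start, matched 6 of the 9 genes: Blnk, Btk, Cd22, Cd37, Cr2 and Fcrla. The windows of Blnk (chr1:249770484-249770783), Cd22 (chr1:95259681-95259980) and Cr2 (chr13:109244457-109244756), all on the minus strand, are printed because these genes stand for the adaptor, the inhibitory co-receptor and the stimulatory co-receptor, and all fell in the drug-dosed spleen by differing amounts. Capitals mark letters found by a search on both strands for the octamer ATGCAAAT, the PU.1 core GAGGAA, the EBF1 core CCCNNGGG and the E-box CAGNTG, all motifs of factors known from B cells. Sequences run 5′ to 3′ along the gene.
Blnk: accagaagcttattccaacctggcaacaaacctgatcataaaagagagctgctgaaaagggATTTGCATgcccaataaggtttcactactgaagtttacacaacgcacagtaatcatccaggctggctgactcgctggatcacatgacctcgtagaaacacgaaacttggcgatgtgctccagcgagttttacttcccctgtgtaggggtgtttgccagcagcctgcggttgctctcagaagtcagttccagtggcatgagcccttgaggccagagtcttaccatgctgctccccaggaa
Cd22: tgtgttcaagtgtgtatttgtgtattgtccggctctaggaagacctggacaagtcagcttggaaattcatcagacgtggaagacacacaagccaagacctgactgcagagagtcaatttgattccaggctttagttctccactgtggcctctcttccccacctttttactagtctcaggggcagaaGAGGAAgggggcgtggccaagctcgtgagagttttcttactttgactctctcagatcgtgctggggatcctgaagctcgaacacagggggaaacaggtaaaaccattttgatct
Cr2: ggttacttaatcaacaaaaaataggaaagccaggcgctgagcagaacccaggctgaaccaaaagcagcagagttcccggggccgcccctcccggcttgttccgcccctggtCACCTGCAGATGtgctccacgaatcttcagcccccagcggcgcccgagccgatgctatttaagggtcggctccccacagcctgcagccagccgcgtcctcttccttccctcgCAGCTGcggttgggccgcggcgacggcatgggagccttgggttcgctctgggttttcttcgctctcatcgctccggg
Blnk alone of the 6 held the octamer, 189 bases before the start on the opposite strand, and 1.78% of all 33469 windows of 300 bases hold it. The PU.1 core stood in 4 of 6 windows, those of Btk, Cd22, Cd37 and Fcrla, against 27.6% of all windows. The E-box stood in 2 of 6, Cr2 and Fcrla, against 50.2% of all, and in Cr2 there were 3, of which the first 2 adjoin. The EBF1 core was in 0 of 6, against 12.4%. A match describes letters in this window and is not evidence of a bound site.

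Values are the deposited log10 intensities, given here as log2 intensities, and a blank is an empty cell of the deposited table. Liver arrays held 4924 to 6060 blanks among 30980 probe sets and spleen arrays 1021 to 1920. The liver array of rat 2003 (drug without wood) stood apart: it had the most blanks and correlated with its fellow liver arrays at 0.887 on average. In spleen, 4 arrays had over 1500 blanks, those of all 3 vehicle rats without wood and of rat 2005 (drug without wood), and the 6 arrays with wood had 1054 to 1183. Blank count therefore moves with wood in the vehicle groups, and the drug effect with wood is the comparison within arrays of like blank count. Hepatocyte markers summed to intensities of 62834 to 71134 in liver and 299 to 838 in spleen, as the organ labels say.

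All 9 genes fell in the spleens of drug-dosed rats, with and without wood. Averaged over both housings the largest log2 changes were those of the receptor chain Cd79b, at -5.20 ± 0.29 (SE), and of the surface protein Ms4a1, at -5.10 ± 0.30. The smallest were those of Btk, at -1.24 ± 0.07, and Cd22, at -1.08 ± 0.13. The median change was -3.53, against -0.02 over 13614 genes tested in spleen, of which 28.1% were called lower at an adjusted p under 0.05 (limma, Benjamini-Hochberg over all genes). Only 1.28% of genes were called with a log2 change of -2 or below, a range that held 7 of the 9. For 9 of 9 genes all 6 drug-dosed spleens lay below all 6 vehicle spleens, which held for 15.1% of the genes with a value on all 12 arrays. Every gene of the 9 passed in each housing taken alone, where 22.4% of genes were lower without wood and 18.5% with wood.

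**Figure D1:**
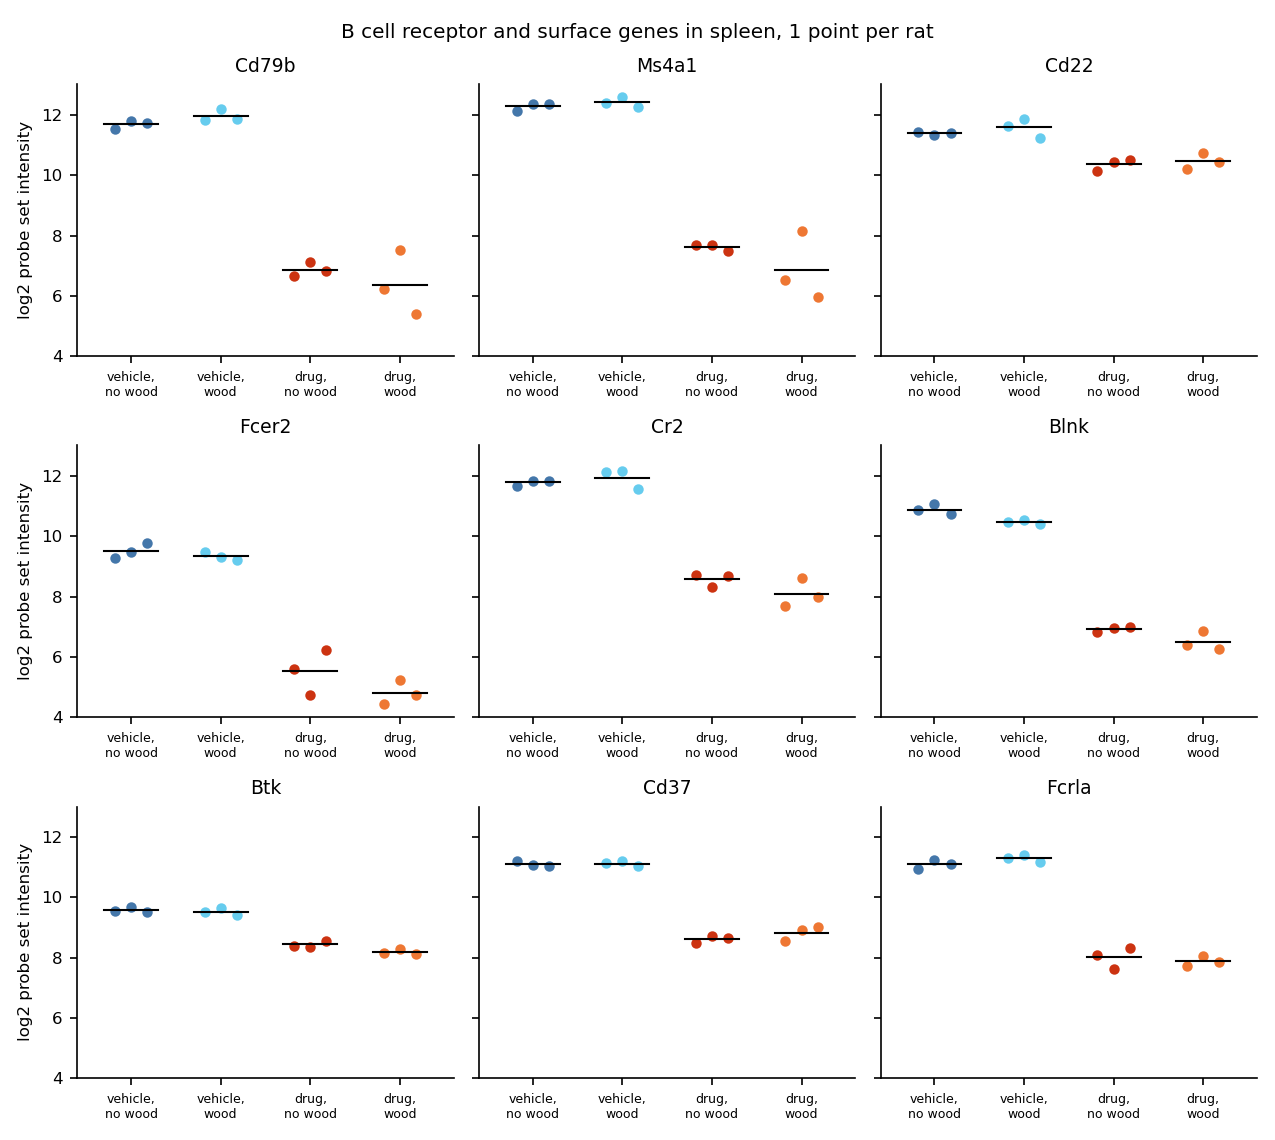
Log2 probe set intensity of each of the 9 genes in spleen by group, 1 point per rat (n = 3 per group), with a bar at the group mean. Drug-dosed rats lie below vehicle rats in all 9 panels, and the points of the drug with wood group spread most for Cd79b (5.39 to 7.51) and Ms4a1 (5.95 to 8.14).

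The receptor itself was represented by Cd79b, the immunoglobulin beta chain that carries the signal into the cell. Its log2 intensity in vehicle spleens was 11.53, 11.78 and 11.73 without wood and 11.84, 12.18 and 11.86 with wood. In drug-dosed spleens it was 6.66, 7.11 and 6.84 without wood and 6.22, 7.51 and 5.39 with wood. The lowest vehicle value was 4.02 above the highest drug value, so the groups were far from overlapping. The level under drug was 2.72% of the vehicle level (95% interval 1.73% to 4.29%, adjusted p = 8.64e-07), and 8 of the 13614 genes had a more negative change.

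Blnk, the adaptor that couples Syk to Btk and phospholipase C gamma, is a cytoplasmic member of the chain. It read 10.85, 11.06 and 10.73 in vehicle spleens without wood and 10.48, 10.54 and 10.40 with wood. Under drug it read 6.81, 6.95 and 6.98 without wood and 6.39, 6.87 and 6.26 with wood. The drug and vehicle values did not overlap, by a gap of 3.42, and the change of -3.97 ± 0.11 had the smallest adjusted p of the 9 (4.21e-08). It was -3.97 ± 0.15 in each housing.

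Btk, the Tec family kinase that acts beside Blnk and is also made by myeloid cells, fell much less. Its vehicle values were 9.54, 9.66 and 9.51 without wood and 9.50, 9.64 and 9.41 with wood. Its drug values were 8.39, 8.35 and 8.56 without wood and 8.14, 8.28 and 8.10 with wood. The groups did not overlap, by a gap of 0.84, and 42.4% of the vehicle level remained (95% interval 38.2% to 47.1%, adjusted p = 7.60e-07). The macrophage and monocyte markers moved the other way in the same spleens, with 8 of 10 higher and 1 lower. Their summed intensity was 25844 to 30574 in vehicle without wood, 30158 to 32561 in vehicle with wood, 40470 to 46597 in drug without wood and 42230 to 43250 in drug with wood, and their part in the value of Btk was not tested. Of other blood cell markers, 4 of 6 neutrophil markers were lower and 1 higher (median -2.02). Lower too were 4 of 5 platelet markers (-1.84), 3 of 5 dendritic cell markers (-0.31) and 2 of 6 mast cell markers (-0.71). Among all genes 28.1% were lower and 26.9% higher. The mast cell sums overlapped, at 209 to 326 in vehicle spleens and 134 to 251 in drug-dosed ones. The neutrophil sum was 2204 to 11261 in vehicle without wood, 3921 to 5588 in vehicle with wood, 514 to 1938 in drug without wood and 1054 to 2509 in drug with wood, and their part was not tested either.

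Both co-receptors fell, Cr2 to a smaller share of its vehicle level than Cd22, a difference that was not itself tested. Cr2, the complement receptor CD21 that lowers the threshold of the receptor, read 11.67, 11.84 and 11.83 in vehicle spleens without wood and 12.11, 12.14 and 11.56 with wood. The drug-dosed values were 8.70, 8.33 and 8.69 without wood and 7.67, 8.62 and 7.98 with wood, again with no overlap. Its change was -3.53 ± 0.17 (adjusted p = 4.34e-07), to 8.68% of the vehicle level. Cd22, the sialic acid binding lectin that damps the receptor, read 11.43, 11.34 and 11.41 in vehicle without wood and 11.64, 11.86 and 11.23 with wood. With the drug the readings were 10.14, 10.45 and 10.51 without wood and 10.19, 10.74 and 10.43 with wood, so that 0.49 separated the nearest drug and vehicle values, the narrowest gap of the 9. Cd22 kept 47.4% of the vehicle level (95% interval 38.8% to 57.9%, adjusted p = 7.10e-05), and its interval does not meet that of Cr2 (6.68% to 11.3%).

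Fcer2 is the low affinity IgE receptor CD23 of follicular B cells. Its probe set read 9.26, 9.47 and 9.77 in vehicle spleens without wood and 9.47, 9.30 and 9.21 with wood. Under drug it read 5.60, 4.74 and 6.24 without wood and 4.45, 5.22 and 4.74 with wood. The drug groups lay at least 2.97 below the vehicle groups, and the change was -4.25 ± 0.24 (adjusted p = 7.90e-07). Fcrla, a relative of Fc receptors that stays inside B cells, read 10.92, 11.24 and 11.11 in vehicle without wood and 11.31, 11.41 and 11.15 with wood. The drug-dosed values were 8.09, 7.61 and 8.31 without wood and 7.73, 8.04 and 7.84 with wood. The change of Fcrla was -3.26 ± 0.12 (adjusted p = 1.68e-07), to 10.5% of the vehicle level, with no overlap.

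The membrane proteins with several membrane passes were Ms4a1, the CD20 antigen, and Cd37, a tetraspanin found on mature B cells and at lower levels on other leukocytes. Ms4a1 read 12.13, 12.36 and 12.34 in vehicle spleens without wood and 12.40, 12.57 and 12.25 with wood. With the drug the readings were 7.69, 7.69 and 7.49 without wood and 6.53, 8.14 and 5.95 with wood, and 2.93% of the vehicle level remained (95% interval 1.83% to 4.68%, adjusted p = 1.19e-06). The groups did not overlap, and the drug values scattered more with wood (SD 1.13) than without (SD 0.11). Cd37 read 11.20, 11.06 and 11.04 in vehicle without wood and 11.13, 11.18 and 11.02 with wood. Under drug it read 8.49, 8.71 and 8.63 without wood and 8.56, 8.91 and 9.01 with wood. Its change of -2.39 ± 0.09 (adjusted p = 1.53e-07) left 19.1% of the vehicle level, between Cd22 and Btk on one side and the other 6 genes on the other.

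Within the drug with wood group the same rat was high in nearly all of the genes. Rat 4003 had the highest value in 8 of 9, by a mean of 0.48 above the group mean, and Cd37 was the exception. Rat 4001 was lowest in 5 and rat 4005 in 4. Among vehicle rats with wood, rat 3003 was highest in 8 of 9 and rat 3005 lowest in 8 of 9. Since the genes are measured on the same array, these orders describe rats or arrays and are not separate observations. Without rat 4003 the change of Cd79b with wood was -6.15 and without rat 4005 it was -5.09, against -5.58 with all rats.

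In the reported probe sets of the 9 genes in spleen, the fit with all rats called no change with the wood stick. In vehicle rats 0 of 9 passed in limma (1 had an unadjusted p under 0.05), while 15.1% of all genes did (2058 of 13614). That number of genes was 220 with the batch term for blanks, 786 without rat 3003 and 3277 without rat 2005. Changes in the 9 ran from -0.41 for Blnk (SE 0.15, adjusted p = 0.0942) to 0.28 for Cd79b (SE 0.41, adjusted p = 0.669). Blnk passed without rat 4003 (-0.41, adjusted p = 0.0405) and with 64 added to every intensity (-0.39, adjusted p = 0.0245). All 3 vehicle spleens with wood lay below all 3 without for Blnk, as for 23.3% of genes, and above them for Cd79b, as for 19.4% of genes. Under drug 0 of 9 passed, as did 0% of all genes (1173 genes had an unadjusted p under 0.05), with 7 of 9 lower with wood, from -0.75 ± 0.43 for Ms4a1 to 0.22 ± 0.12 for Cd37. Blnk and Btk alone of the 9 had an unadjusted p under 0.05 there, with adjusted p-values of 0.542 and 0.538 (limma).

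Whether the drug effect itself differed between housings was tested as an interaction, and 0 of 9 passed in limma (0 had an unadjusted p under 0.05), against 0.705% of all genes. Those 96 genes became 1013 of 13586 without rat 2005, whose spleen array is among those with over 1500 blanks. The differences with wood minus without ran from -0.88 for Ms4a1 (95% interval -2.24 to 0.48, adjusted p = 0.551) to 0.21 for Cd37 (95% interval -0.17 to 0.59, adjusted p = 0.619). For Cd79b the interval ran from -2.08 to 0.54. Leaving out rat 4003 took Ms4a1 to -1.51 with an adjusted p of 0.0373, so that test depends on 1 spleen.

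Blank count was set against the drug effect in 2 ways. With a batch term for the 4 arrays of over 1500 blanks, all 9 genes stayed lower in spleen, from -5.21 for Cd79b to -1.0 for Cd22. That term rests on rat 2005 against rats 2001 and 2003, as no other group holds arrays of both kinds. It left the change with wood at -5.58 for Cd79b and -1.12 for Cd22, so it tests the drug effect little. Within the 8 arrays of fewer blanks, where the contrast is drug with wood against vehicle with wood, they ran from -5.58 for Cd79b to -1.12 for Cd22, again with 9 of 9 passing.

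Of the 9 genes, 3 have further probe sets, which were fitted together with all 19655 probe sets tested in spleen, a choice made after the data were seen. The 5 probe sets of Cr2 changed by -4.54 ± 0.19 to -3.32 ± 0.20 under drug, and the other probe set of Fcrla by -3.76 ± 0.17. The other probe set of Fcer2 gave other values than the reported one. It read 6.11 to 6.99 in vehicle spleens without wood and 8.20 to 8.43 with wood, a rise of 1.73 ± 0.32 with wood (adjusted p = 0.0120), where the reported probe set changed by -0.17 ± 0.33. The drug-dosed values were 5.54 and 5.55 without wood, with the array of rat 2005 blank, and 3.99 to 5.29 with wood. Its change under drug was -1.07 ± 0.36 without wood (adjusted p = 0.0412) and -3.64 ± 0.32 with wood, with an interaction of -2.57 ± 0.48 (adjusted p = 0.0552). The 3 low vehicle arrays are those with over 1500 blanks, so wood and blank count cannot be told apart for it. In Cr2, the probe set with the largest drug effect changed by -0.80 ± 0.27 with wood in vehicle rats (adjusted p = 0.0681), and the reported probe set by 0.16 ± 0.24.

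**Figure D2:**
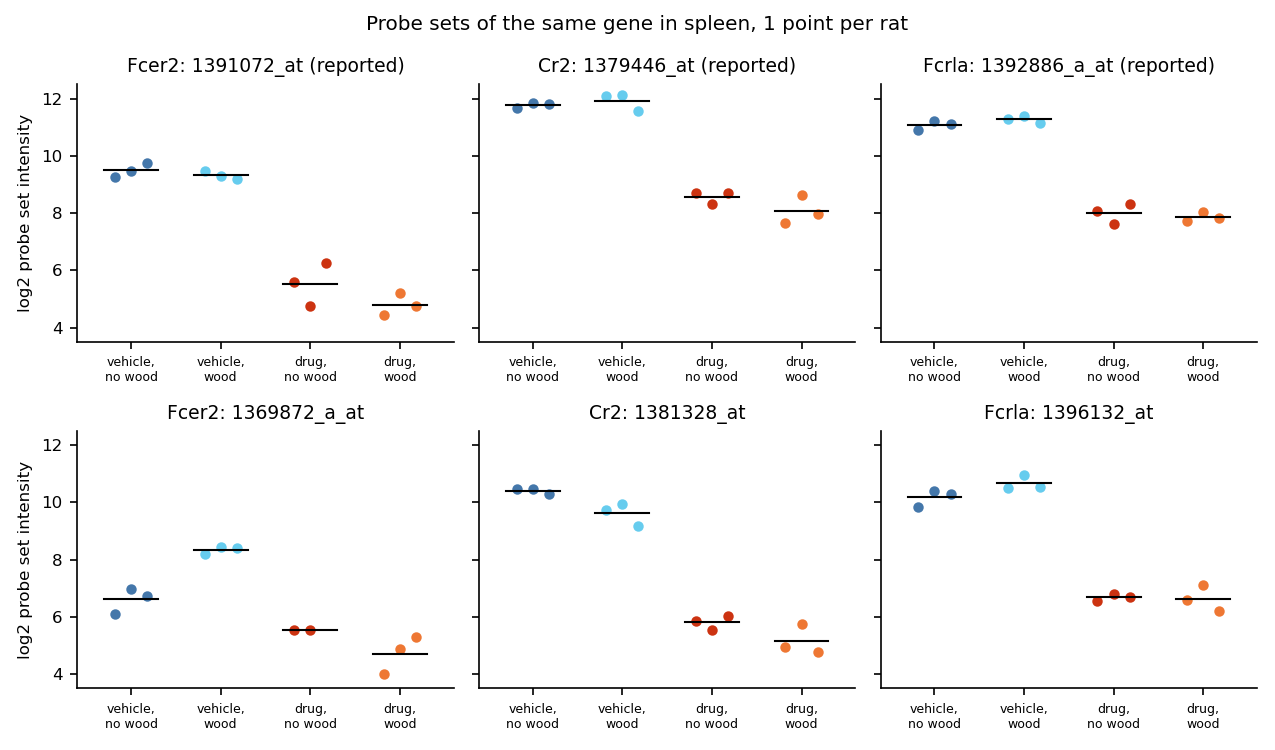
Log2 intensity of the reported (top row) and 1 further (bottom row) probe set of Fcer2, Cr2 and Fcrla in spleen, 1 point per rat with a bar at the group mean. Drug-dosed rats are lower in every panel, and the further probe set of Fcer2 separates the vehicle rats with wood (8.20 to 8.43) from those without (6.11 to 6.99).

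Cr2 and Fcer2 are also made by follicular dendritic cells, which hold antigen in the B cell follicle. Of 9 genes listed as markers of these cells, 8 were higher under drug, against 26.9% of all genes, and 1 was lower. The lower was Fcgr2b, an inhibitory Fc receptor that B cells share. The list is not particular to the spleen: it also summed to 11522 to 14042 in liver. In vehicle rats 5 of the 9 were higher in spleen than in liver and 3 lower, with a median of 0.83 against 0.72 for all genes. Cxcl13, the chemokine that draws B cells into follicles, was higher by 0.82 ± 0.13, and the sum of the 9 markers was 21234 to 22995 in vehicle without wood, 24853 to 27006 in vehicle with wood, 28876 to 33516 in drug without wood and 33547 to 36175 in drug with wood. The 9 B cell genes together summed to 20952 to 26904 in vehicle spleens and 2514 to 3781 in drug-dosed ones. Of the T cell markers 2 of 12 were higher (Cd2 and Cd4) and 4 lower, with a median of -0.30, and Cd3e changed by -0.18 ± 0.16 (adjusted p = 0.357). Their sum was 9857 to 11553 in vehicle without wood, 10739 to 12232 in vehicle with wood, 9172 to 10642 in drug without wood and 7616 to 11787 in drug with wood. No marker of these cell types was blank in all rats of a spleen group, and the part of other cells in the 9 values was not tested.

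The rest of the receptor pathway had smaller changes at the median, in both directions. Of 15 other proximal kinases and adaptors with a value, 8 were lower and 2 higher, with a median of -0.32, against 28.1% lower and 26.9% higher among all genes. The largest falls were those of the Src family kinase Blk (-2.38 ± 0.33), the phospholipase Plcg2 (-2.38 ± 0.18), the scaffold Bank1 (-2.31 ± 0.12) and the ubiquitin ligase Cblb (-0.73 ± 0.11). Syk, the kinase that phosphorylates Blnk, fell by 0.56 ± 0.09, and the Src family kinases Fyn and Lyn rose by 0.55 ± 0.07 and 0.34 ± 0.09. Of 8 inhibitory co-receptors and phosphatases 6 were lower, led by Fcgr2b at -3.52 ± 0.15, the adaptor Dok3 at -1.68 ± 0.18, the phosphatase Ptpn22 at -1.22 ± 0.08 and the lectin Siglec10 at -1.17 ± 0.13, and the adhesion protein Pecam1 rose by 0.27 ± 0.06. Of 13 genes of downstream signalling 8 were lower and 1 higher. The transcription factor Foxo1 fell by 1.15 ± 0.13 and the kinase Akt1 rose by 0.59 ± 0.06. Nfkb1 changed by -0.58 ± 0.08 and Rac2 by -0.53 ± 0.08.

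Of 12 other surface genes of B cells with a value, 11 were lower and 1 higher, with a median of -1.21. The changes were -4.56 ± 0.15 for Cd52, -3.76 ± 0.14 for the chemokine receptor Ccr6, -3.48 ± 0.20 for Cd24 and -3.46 ± 0.14 for the IgM receptor Fcmr. The 1 that rose was the costimulator Cd86, by 0.96 ± 0.08.

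Relatives of the 9 genes by protein family went both ways. Of 14 tetraspanins other than Cd37, 10 were higher and 4 lower: Tspan33 changed by -4.87 ± 0.27, Tspan8 by -3.46 ± 0.17, Tspan32 by -1.78 ± 0.14 and Cd53 by -0.60 ± 0.08, while Tspan4 rose by 1.70 ± 0.12. Of 6 MS4A genes other than Ms4a1, 2 were higher, 1 was lower and 3 did not pass, with Ms4a6a at 1.12 ± 0.08, Ms4a6bl1 at 0.47 ± 0.06 and Ms4a2, the mast cell IgE receptor chain, at -0.92 ± 0.21. Of 2 Tec kinases other than Btk, Tec fell by 2.11 ± 0.19 and Txk by 0.34 ± 0.10. Of 7 complement receptors and C3b regulators other than Cr2, Cd55 fell by 3.21 ± 0.20, Cd46 fell by 0.36 ± 0.13, C5ar1 rose by 0.78 ± 0.09 and 4 did not pass. Quantile normalisation and median centring left the median of all genes at -0.02 and -0.01, so they test these directions little, and none flipped.

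**Figure D3:**
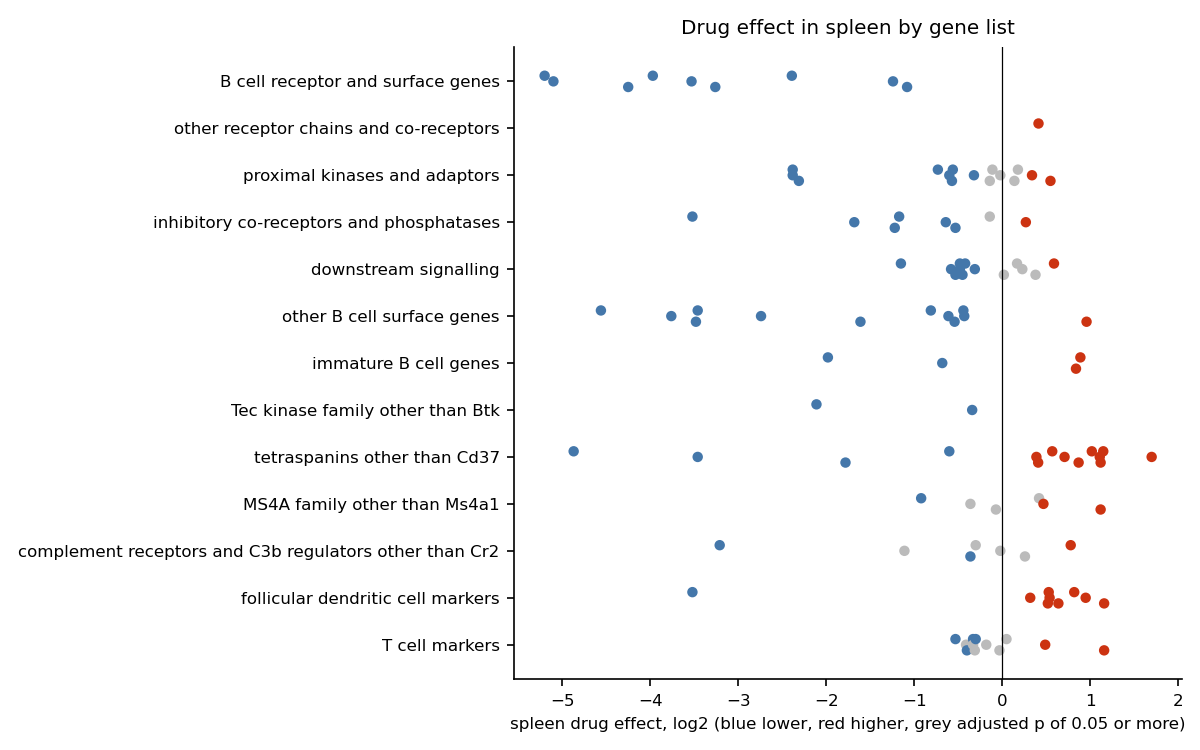
Spleen drug effect (log2 change, drug minus vehicle, mean of both housings) of each gene by list, 1 point per gene, blue for called lower, red for called higher and grey for not called at an adjusted p under 0.05. The 9 B cell receptor and surface genes lie between -5.20 and -1.08, and tetraspanins stand on both sides of 0.

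Genes whose spleen profile over the 12 arrays was most like the mean profile of the 9 were found by the root mean square difference of centred log2 values, among 12837 genes with a value on every array. The nearest were Fcmr (0.12), the B cell transcription factor Ebf1 (0.20), Cd24 (0.29), Fcgr2b (0.29), Pou2af1, a coactivator of octamer factors (0.32), Clcn4 (0.34), Mzb1 (0.35) and Ybx3 (0.37). Of the 9 themselves Cr2 (0.17) and Fcrla (0.18) lay closest to their mean and Cd22 (1.15) and Btk (1.06) farthest. The likeness was picked on these arrays and is a description.

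In liver Ms4a1, Cd22, Cr2, Cd37 and Fcrla had values on all 12 arrays. Cd22 lay above the median intensity of every array (89.7 to 101). Cr2, Blnk, Btk, Cd37 and Cd79b lay below that median wherever they had a value, and Ms4a1 did on all arrays but that of rat 2003. A fall of these genes thus had less room to show in liver than in spleen. Fcer2 was blank on 9 of 12 arrays and was not tested, and Cd79b was blank on 4 of 12. Of the 8 tested, 0 were called under drug in limma, against 0.812% of genes in either direction, and 2 had an unadjusted p under 0.05. The drug and vehicle values overlapped for all 9 genes. Among genes with a value on all 12 arrays, as Ms4a1, Cd22, Cr2, Cd37 and Fcrla had, 1.82% had all drug values below all vehicle values. Cd79b, Blnk, Btk and Fcer2 had fewer values, Fcer2 only 1 in vehicle and 2 under drug, so its overlap says little. The median change was -0.41, against -0.02 over 12683 genes tested.

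Cd37 had the lowest unadjusted p of the 8 in liver, followed by Cd22. Its probe set read 4.80, 4.72 and 6.19 in vehicle livers without wood and 5.42, 6.48 and 6.07 with wood. With the drug the readings were 4.52, 4.33 and 5.46 without wood and 4.61, 3.86 and 2.98 with wood. The change was -1.32 ± 0.38 over both housings (limma, adjusted p = 0.163). With wood it was -2.17 ± 0.53 (limma, adjusted p = 0.274), where 0.0473% of genes were called. Macrophage and monocyte markers were lower in the same livers, 4 of 9 called (Csf1r, Adgre1, C1qa and C1qc) and none higher. Their sum was 5437 to 6586 in vehicle without wood, 5923 to 6729 in vehicle with wood, 3112 to 3857 in drug without wood and 3037 to 4332 in drug with wood, with Itgam blank in all rats of each group. Their part in the value of Cd37 was not tested.

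Cd22 read 8.52 to 9.0 in vehicle livers, with a median of 8.93, and 7.68 to 8.78 under drug, with a median of 8.60. Its change was -0.43 ± 0.19 (adjusted p = 0.340), and the lowest value was that of rat 2003, without which the change was -0.25. Ms4a1 read 5.66 to 6.43 in vehicle livers, with a median of 6.05, and 5.34 to 7.38 under drug, with a median of 6.10, a change of 0.12 ± 0.27 (adjusted p = 0.875). Its highest value was again that of rat 2003, whose array was blank in 4 of the 9 genes. Cd79b read -0.71 to 5.13 in the 5 vehicle livers with a value and 3.00 to 4.31 in the 3 drug livers, with 4 blanks. Its change was 1.47 ± 0.87 (adjusted p = 0.516), and -0.15 with 16 added to every intensity and blanks at 0. Cr2, Blnk, Btk and Fcrla changed by -0.63 ± 0.37, -0.39 ± 0.63, -0.21 ± 0.22 and -0.45 ± 0.29, none called. The wood stick in vehicle rats, the wood stick under drug and the interaction each called 0 of the 8 in liver, where 0% of genes passed and 1, 0 and 1 of the 8 had an unadjusted p under 0.05 (limma).

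In vehicle rats, in a fit that did not pair the organs by rat, spleen exceeded liver in 8 of 8 tested genes. This held for 59.2% of all genes, and the median was 5.28 against 0.72 over all genes. The difference ran from 2.62 ± 0.16 for Cd22 to 9.34 ± 0.51 for Cd79b, and the latter was 7.19 with 16 added to every intensity. Under drug spleen still exceeded liver in 8 of 8, as in 59.4% of genes, but the median was 2.32 (0.69 over all genes). Cd37 stood 4.42 ± 0.28 above liver, Btk 3.72 ± 0.16 and Cr2 3.43 ± 0.30. Fcrla stood 0.80 ± 0.23 above liver (adjusted p = 0.00359), a call lost with quantile normalisation (0.35, adjusted p = 0.235) and with median centring (0.48, adjusted p = 0.0830).

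The test of the drug effect in spleen minus that in liver was negative in 8 of 8 genes, against 14.7% of all genes called lower. It was -5.21 ± 0.42 for Ms4a1, -3.58 ± 0.63 for Blnk, -2.90 ± 0.42 for Cr2, -2.80 ± 0.32 for Fcrla and -1.03 ± 0.21 for Btk. For Cd79b it was -6.67 ± 0.80, which rests on 8 faint liver values, and it was -4.41 with 64 added to every intensity and blanks at 0, so its size is not fixed by these data. The calls for Cd22 (-0.65 ± 0.23, adjusted p = 0.0384) and Cd37 (-1.07 ± 0.40, adjusted p = 0.0471) were near the threshold. With liver and spleen paired within each rat the value for Cd37 was -1.07 with an adjusted p of 0.0815, and leaving out 1 rat kept the call of Cd22 in 4 of 12 cases (rats 1003, 2003, 3005 and 4003) and that of Cd37 in 3 of 12 (rats 1005, 2003 and 4005).

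**Figure D4:**
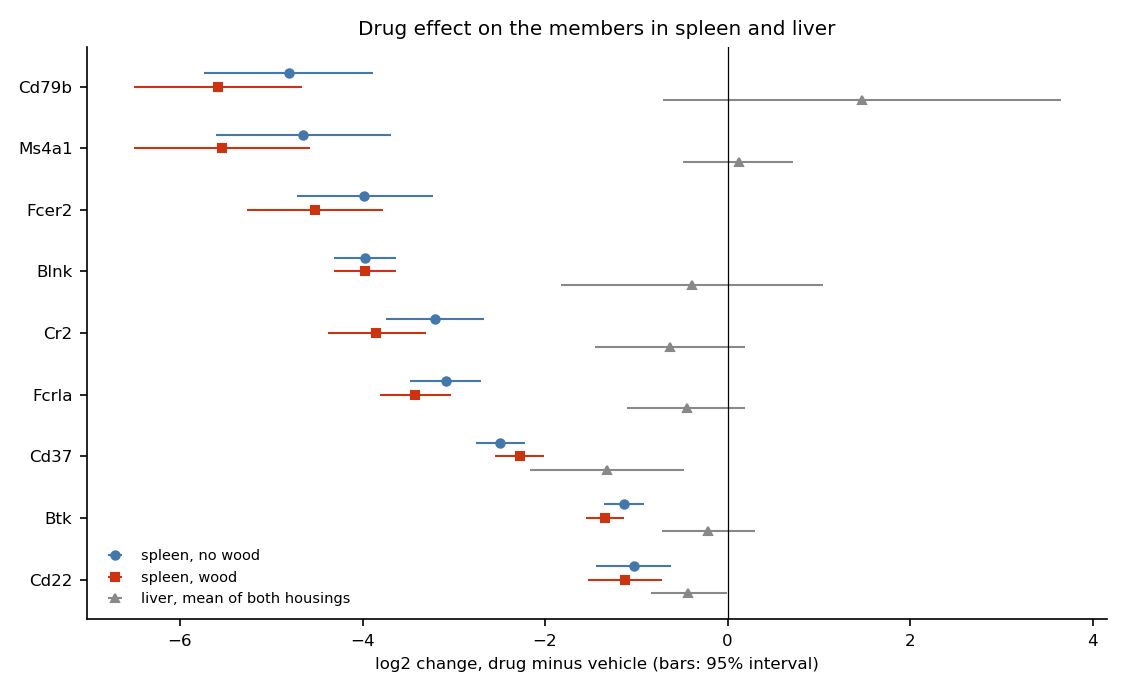
Log2 change under drug of each gene in spleen without wood (circles), in spleen with wood (squares) and in liver over both housings (triangles), with 95% intervals from limma, each group n = 3 rats. Spleen intervals lie below 0 for all 9 genes, liver intervals include 0 for all tested genes but Cd37 and Cd22 (upper ends -0.48 and -0.01), and Fcer2 has no fitted liver change.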

How the data were processed

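RNA of liver and spleen from 12 rats was measured on 24 arrays. The deposited values are log10 intensities per probe set, a base inferred from their span (2143-fold as log10, 10.1-fold as log2), and the summarisation and scaling by the authors are not stated in the labels. They were multiplied to log2 and not rescaled. Blanks, 10.5% of cells, stayed missing, and a gene needed at least 1 value in every group. Of 30980 probe sets 20792 name 1 gene in the platform annotation, and the probe set with the highest mean log2(intensity + 16) stood for its gene. The design had allowed for log2 values, and the same test was used.

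Contrasts among the 4 groups were fitted per organ, and across organs over all 24 arrays, with lmFit and eBayes (limma 3.58.1, R 4.3.3), called at a Benjamini-Hochberg adjusted p under 0.05 over all genes. The script was tested on simulated data. Liver and spleen of 1 rat carry the same animal label and so are paired, but the main fit across organs did not use the pairing. Their deviations from group means correlated at -0.0584 to 0.17 over 10530 genes. Genes and lists were chosen with earlier results of these data known. The array number limits precision. The rule for named genes was all 9, up to 4 called genes of each list by size, the 8 genes nearest to the mean profile, and markers of other cells where a result stands beside them. Syk, and the list members that went against the others where they were few, were named after their values were seen.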

Additional observations from a re-analysis of the deposited data

Results flagged for a closer look

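The drug effect differed between spleen and liver, by a test of the difference itself, for the 8 of the 9 genes tested in both organs, though not equally firmly. The difference, spleen minus liver on the log2 scale, was -6.67 for Cd79b, -5.21 for Ms4a1, -3.58 for Blnk, -2.90 for Cr2, -2.80 for Fcrla, -1.07 for Cd37, -1.03 for Btk and -0.65 for Cd22. With liver and spleen paired within each rat Cd37 was not called (adjusted p = 0.0815 in limma, 7 of 8 called), and with 1 rat left out Cd22 was called in 4 of 12 fits and Cd37 in 3 of 12. The liver readings of Cd79b were faint and blank on 4 of 12 arrays, so that its size moved to -4.41 with 64 added to every intensity, and readings of the others in liver lay 2.62 to 6.32 below those in spleen in vehicle rats.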

How the results depend on the processing

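Every gene of the 9 that was tested stayed lower and called in spleen under drug in each alternative and with any 1 rat left out (8 were tested among genes at or above the median level, without Fcer2). With 1 rat left out Cd79b ran from -5.48 to -4.95, and with only the spleen arrays of at most 1500 blanks it was -5.58. Of 914 gene values under other settings 890 kept their direction and side of the threshold, 16 reversed, 7 were weaker and 1 stronger, and with 1 rat left out 989 of 1028 did. The cause was not tested for any that changed. For wood in vehicle rats, Btk was 0.03 with median centring, Fcer2 0.78 and Cr2 -0.20 with the mean of all probe sets, and Ms4a1 -0.07, Fcer2 0.89 and Btk 0.14 with the batch term. Further probe sets, chosen after seeing the data, gave -0.56 and -0.80 for Cr2 and 1.73 for Fcer2. Under drug, wood gave 0.02 for Fcrla with the batch term. The interaction was 0.05 and 0.14 for Blnk with offsets of 16 and 64, and 0.35 and 0.13 for Cr2 with further probe sets. Liver Cd79b was -0.15 and -0.06 with those offsets. Of the 9 genes, wood in vehicle called 1 with an offset of 64 (Blnk, -0.39), and each of the 3 comparisons of organs called 4 of the 4 tested among genes at or above the median level. With 1 rat left out, genes called ran from 0 to 1 for wood in vehicle and for the interaction (1 without rat 4003: Blnk, -0.41, and Ms4a1, -1.51), from 7 to 8 for spleen against liver and from 6 to 8 for spleen minus liver. In these organ comparisons Cd79b could not be tested without rat 4005, whose liver alone in its group had a value. With 1 rat left out, spleen against liver lost no call among the genes tested. Ranges that crossed 0 were -0.02 to 0.06 for Cd37 (wood in vehicle), -0.05 to 0.22 for Cd22 and -0.33 to 0.02 for Fcrla (wood under drug), -0.27 to 0.05 for Cd22 and -0.18 to 0.12 for Blnk (interaction), and -0.10 to 0.24 for Ms4a1, -0.70 to 0.17 for Blnk and -0.42 to 0.01 for Btk (liver). In spleen minus liver, calls were lost for Cd22 (-0.61) and Cd37 (-1.03) with median centring, for Btk (-0.63) with an offset of 16 and for Cd37 with the mean of probe sets. The replicate block, pairing liver and spleen of a rat, changed only the call of Cd37 (-1.07, adjusted p = 0.0815 in limma). In spleen against liver under drug, the call of Fcrla was lost with quantile normalisation and with median centring.

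Over all genes, counts moved by more than 1.5 times in several comparisons. Drug in spleen called 7485, and 4801 at or above the median level. Drug without wood called 6140, and 3832 with the batch term. Wood in vehicle called 2058, and 220 to 3198, or 3277 without rat 2005. The interaction called 96, and 11 to 198, or 1013 without rat 2005. Liver drug called 103, and 212 with an offset of 64. It called 35 without rat 1001, 40 without 3003, 41 without 3005 and 42 without 3001. It called 45 without rat 1003, 54 without 1005, 63 without 4005 and 68 without 4003. Liver drug without wood called 19, and 2 to 63, and with wood 6, and 1 to 17. Spleen against liver called 9911 and 9929, and 5567 and 5568 at or above the median level. Blank liver readings limit the liver results of Fcer2 and Cd79b. Faint readings, below the median intensity of the array, limit those of Cr2, Blnk, Btk, Cd37 and, but for rat 2003, Ms4a1.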

Other observations

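Genes listed for immature B cells and for plasma cells stand beside 28.1% of all genes lower and 26.9% higher in the drug-dosed spleens. Of 4 immature B cell genes with a value, Vpreb3 fell by 1.98 ± 0.19 and Kit, also listed here as a mast cell marker, by 0.68 ± 0.25. Il7r, the receptor for interleukin 7 that T cells also carry, rose by 0.89 ± 0.08. Cd93, which vessels and macrophages also make, rose by 0.84 ± 0.13. As Kit, Il7r and Cd93 are shared with other cells, these values do not describe immature B cells alone. Of 6 plasma cell genes 3 were lower: Mzb1, which B cells share, by 2.95 ± 0.13, the survival receptor Tnfrsf17 by 1.42 ± 0.12 and the antibody joining chain Jchain by 0.89 ± 0.12. Sdc1, Xbp1 and Prdm1 changed by 0.13 ± 0.16, -0.03 ± 0.08 and 0.07 ± 0.08 and did not pass (adjusted p = 0.522, 0.789 and 0.492). Plasma cell genes together summed to 10734 to 12674 in vehicle spleens and 5871 to 7682 in drug-dosed ones.

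Markers of other cell types of the spleen also differed under drug, the neutrophil, platelet, dendritic cell and mast cell markers being given beside Btk. All 6 erythroid genes tested were lower, from -6.71 ± 0.33 for Ahsp, the alpha haemoglobin chaperone, to -3.25 ± 0.25 for the transcription factor Klf1. Epb42 was not tested, as it was blank in all rats of both drug groups, though not in either vehicle group. Of 11 stroma and vessel genes 10 were higher, among them Pdgfra at 1.40 ± 0.12 and Col1a2 at 1.22 ± 0.10.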
